A study of Mus musculus with 12 samples.

Results

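Transcripts of 6 acute phase proteins, Saa1, Saa2, Saa3, Lcn2, Ptx3 and Hp, were followed in cultured stroma of the small intestine of mice. The members were chosen by gene symbol, and all 6 were found among the 23329 genes listed in each of the 12 libraries. Primary cells of C57BL6/J background, labelled as intestinal myofibroblasts and used at passages 2 to 3, came from E14.5 embryos or from adult mice. They were treated for 6 h with lipopolysaccharide (LPS) of E. coli O111:B4, which the labels give at 10 µg/µl (a unit that may have been meant per ml), or with PBS as vehicle. The groups were embryonic PBS, embryonic LPS, adult PBS and adult LPS, with 3 libraries each. All cells were passaged in culture, so that no group stands for the tissue itself. Each embryonic culture pooled several embryos. The methods of the study report CD45+CD11b+ leukocytes in these cultures, so the libraries are not of 1 cell type.

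The acute phase response is the change in secreted proteins that follows infection or injury. Interleukin-6 type cytokines, acting through STAT3, and interleukin-1 and TNF, acting through NF-κB and C/EBP factors, are its textbook inducers. Saa1 and Saa2 encode the serum amyloid A proteins that the liver releases into blood, whereas Saa3 is the form made in mice by macrophages, fat and other tissues outside the liver. Lcn2 (lipocalin 2) binds bacterial siderophores and so withholds iron from bacteria. Ptx3 is a long pentraxin, a soluble pattern recognition molecule that stromal and myeloid cells make locally. Hp (haptoglobin) binds free haemoglobin.

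The 3 Saa genes lie together on chromosome 7 of GRCm38 (GENCODE M21). Saa3 spans chr7:46711998-46715700 and Saa1 chr7:46740497-46742980 on the minus strand, and Saa2 spans chr7:46751790-46754313 on the plus strand. Lcn2 lies at chr2:32384633-32388252 on the minus strand, Ptx3 at chr3:66219910-66225805 on the plus strand and Hp at chr8:109575128-109579172 on the minus strand. Although the genes are related, a 75-base read can tell them apart: 25 of the 535 windows of that length in the Saa1 mRNA were identical to a window of Saa2, and no window of Saa3, Lcn2, Ptx3 or Hp was identical to one of another gene.

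RefSeq promoter windows of GRCm38.p6 were matched for 5 members, Saa1, Saa2, Saa3, Lcn2 and Ptx3. The bases upstream of the transcript start are shown for Saa3 and Ptx3, the members with the highest counts, and for Saa1, the neighbour of Saa3 that had almost none. Capitals mark matches to TTNNGNAA or its reverse complement, a loose form of the C/EBP site:
Saa3, chr7:46715701-46715926, minus strand: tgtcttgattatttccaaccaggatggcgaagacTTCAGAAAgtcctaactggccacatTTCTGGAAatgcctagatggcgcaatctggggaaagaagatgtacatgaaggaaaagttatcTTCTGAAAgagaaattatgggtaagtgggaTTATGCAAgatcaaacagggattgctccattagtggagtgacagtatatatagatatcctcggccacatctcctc
Ptx3, chr3:66219637-66219886, plus strand: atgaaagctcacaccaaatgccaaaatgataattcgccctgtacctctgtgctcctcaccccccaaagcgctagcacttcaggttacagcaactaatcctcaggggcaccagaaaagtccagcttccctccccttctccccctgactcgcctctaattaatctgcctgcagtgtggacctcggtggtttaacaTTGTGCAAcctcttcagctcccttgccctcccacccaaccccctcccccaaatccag
Saa1, chr7:46742981-46743230, minus strand: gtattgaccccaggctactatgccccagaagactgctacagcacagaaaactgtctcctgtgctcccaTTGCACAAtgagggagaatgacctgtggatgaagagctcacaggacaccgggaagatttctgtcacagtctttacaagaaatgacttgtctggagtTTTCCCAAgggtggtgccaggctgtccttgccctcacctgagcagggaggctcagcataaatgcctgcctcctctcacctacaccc
Within 250 bases upstream of the start, Saa3 held 4 such matches, Saa1 held 2, and Saa2, Lcn2 and Ptx3 held 1 each, against 36.8% of 32817 promoter windows with at least 1. The NF-κB consensus (7.25% of windows), the STAT consensus TTCNNNGAA (7.01%) and the AP-1 site TGANTCA (6.75%) had no match in the same 250 bases of these 5 genes, on either strand. The promoter windows of Saa1 and Saa2 were identical at 287 of 301 aligned positions, and those of Saa1 and Saa3 at 165 of 324. 

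The libraries held between 18850224 and 32672370 counts on the strand of the gene (median 29738536). Levels are given as CPM, counts scaled to a common library total after TMM normalization, and 3 counts, taken as the smallest detectable level, came to between 0.0897 and 0.145 CPM. This floor covers counting error only. Stromal markers (10 genes, among them Col1a1) summed to between 22900 and 46450 CPM in all libraries. The 5 hepatocyte markers summed to at most 1.33 CPM, nearly all of it Ahsg, with Ttr at 0 and Alb, Apoa1 and Cyp2e1 at no more than 1 count in every library. The 8 neutrophil markers summed to at most 5.56 CPM, with S100a9 and Retnlg at 0 in every library, and the 5 adipocyte markers to at most 3.999 CPM.

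Saa3 differed between the stages before any stimulus. In embryonic PBS cultures it stood at 0.0301, 1.31 and 0.329 CPM (1, 43 and 11 counts), and in adult PBS cultures at 46.9, 106 and 29.9 CPM. The adult levels lay wholly above the embryonic ones, and the group means, 61.1 ± 40.2 and 0.557 ± 0.670 CPM (SD, n = 3 each), were 109.7-fold apart. The size of this ratio depended on embryonic culture 2, without which the embryonic mean was lower, at 0.180 CPM, and the ratio larger. With edgeR's quasi-likelihood test the log2 difference, embryonic minus adult, was -6.77 ± 1.22 (SE, adjusted p = 0.0167). In bulk RNA, fewer cells that make a transcript and less of it in each cell cannot be told apart.

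Upon LPS stimulation Saa3 was higher in every culture of both stages. Embryonic LPS libraries held 15.9, 39.6 and 149 CPM, all above their PBS controls, with a mean of 68.2 ± 71.0 CPM (SD, n = 3). Adult LPS libraries held 179, 446 and 139 CPM, again all above the adult controls, with a mean of 255 ± 167 CPM (SD, n = 3). In embryonic stroma Saa3 rose by a log2 fold change of 6.93 ± 1.22 (SE, edgeR adjusted p = 0.0144). Without both libraries of embryonic culture 3 the fold change was 5.33 and missed the threshold (adjusted p = 0.0926), and the call was also lost without adult culture 1 or 3 (adjusted p = 0.0534 and 0.0582). In adult stroma the log2 fold change was 2.06 ± 0.94 (SE) and missed the threshold (edgeR adjusted p = 0.907). When the culture number was kept as a replicate block, the adult change became 2.07 ± 0.37 and passed (edgeR adjusted p = 0.0161). It no longer passed when any 1 adult culture was left out of the blocked fit (adjusted p = 0.129, 0.103 and 0.176 without cultures 1, 2 and 3).

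Culture by culture, the adult folds of Saa3 were alike, at 3.82, 4.19 and 4.63. The embryonic folds were 30.2 in culture 2 and 453 in culture 3, and the single count in the PBS library of culture 1 gave a ratio of 527 with a counting interval of 94.1 to 20860 (95%, exact binomial). On the linear scale the order of the stages was the other way round: the rise from PBS to LPS was 67.6 ± 71.0 CPM in embryonic and 194 ± 127 CPM in adult cultures (SD, n = 3 each). The difference between the 2 responses was 4.87 ± 1.43 on the log2 scale without the block (SE, edgeR adjusted p = 1.00, unadjusted p = 0.00649) and 4.67 ± 0.69 with it (edgeR adjusted p = 0.0276). The blocked call was lost without embryonic culture 1 (adjusted p = 0.0680) or without adult culture 1, 2 or 3 (adjusted p = 0.156, 0.127 and 0.157). With LPS in the medium, the embryonic and adult levels of Saa3 overlapped and their log2 difference of -1.90 ± 0.93 (SE) missed the threshold (edgeR adjusted p = 0.268).

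Saa1 and Saa2 were close to absent. Saa1 had 1, 3 and 4 counts in the embryonic LPS libraries, 2 counts in 1 adult LPS library and 0 in all 6 PBS libraries. Saa2 had a single count, in 1 embryonic LPS library, and 0 in the other 11. Neither passed the filter on low counts, so neither was tested, and levels below the 3-count level of each library, 0.0897 to 0.145 CPM, were not detectable. In the same LPS libraries Saa3 had between 453 and 14505 counts.

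**Figure D1:**
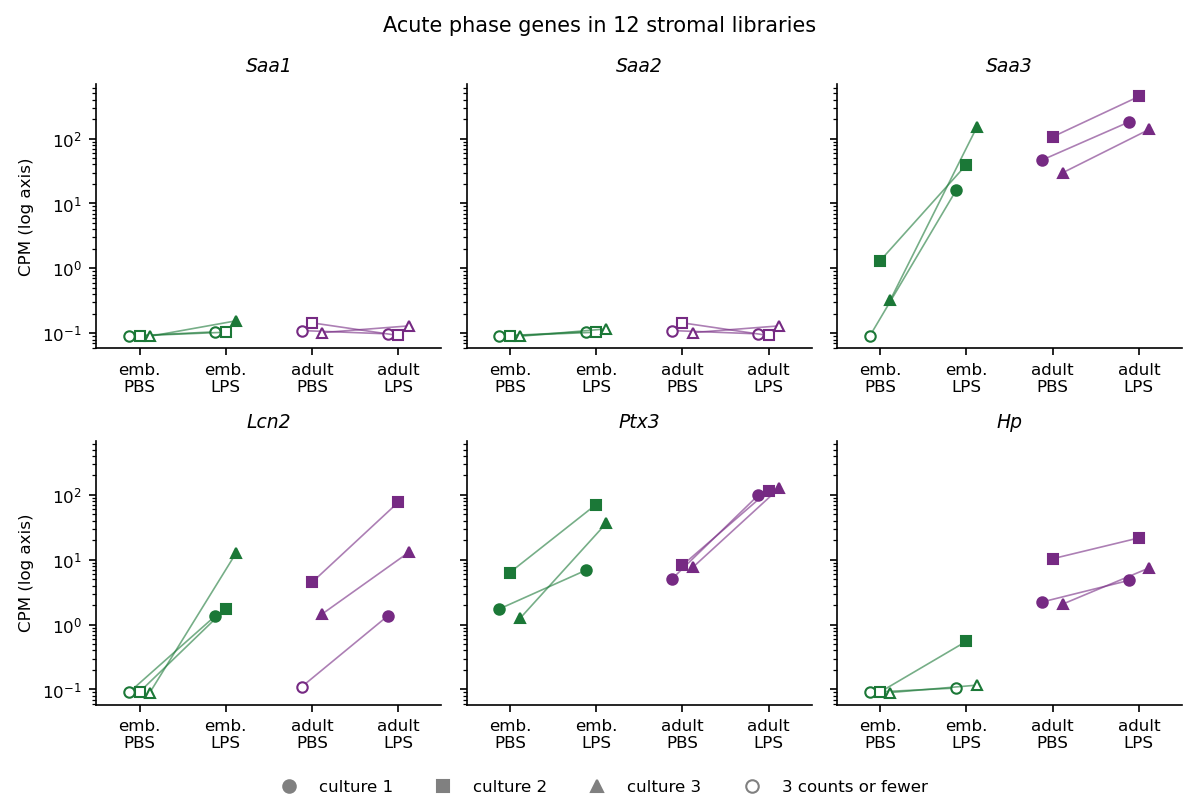
CPM of the 6 members on a log axis in embryonic (green) and adult (purple) libraries, with lines joining same-numbered libraries of a stage. Open symbols are libraries with 3 counts or fewer, of which those below the level of 3 counts are drawn at that level. Saa3 and Hp were above 1 CPM in every adult library, whereas Saa1 and Saa2 stayed at or near the floor throughout.

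Lcn2 was not detected in unstimulated embryonic stroma and appeared there upon LPS stimulation. It had 0 counts in all 3 embryonic PBS libraries and 1.37, 1.76 and 12.7 CPM in the embryonic LPS libraries. Against a floor of 3 counts per library these were at least 15.1-fold, 19.3-fold and 142-fold higher in cultures 1, 2 and 3. In adult PBS libraries it stood at 0, 4.48 and 1.47 CPM, and in adult LPS libraries at 1.37, 77.0 and 12.96 CPM. Each adult culture was higher with LPS than with PBS, but the groups overlapped, since culture 1 with LPS was below culture 2 with PBS. Lcn2 passed the filter on low counts only through the LPS groups, so the tests of its responses are descriptions. Neither response passed without the block (edgeR adjusted p = 0.206 in embryonic and 0.922 in adult stroma). Both passed with it (edgeR adjusted p = 0.000917 and 0.00282), with an adult log2 fold change of 3.79 ± 0.34 (SE). Leaving out adult culture 2 left the adult blocked call in place (adjusted p = 0.0490).

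The levels of Lcn2 in the 2 stages overlapped. The adult mean with LPS, 30.5 ± 40.8 CPM, was 5.76-fold the embryonic mean of 5.29 ± 6.45 CPM (SD, n = 3 each), and the log2 difference of -2.53 ± 1.65 (SE) missed the threshold (edgeR adjusted p = 0.434). Without both libraries of adult culture 2 that difference was -0.44. The interaction of stage and LPS missed the threshold too (edgeR adjusted p = 1.00 without and 0.171 with the block).

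Ptx3 was transcribed in every library, and its levels in adult cultures with LPS lay close together. With PBS it stood at 1.75, 6.34 and 1.26 CPM in embryonic and at 5.06, 8.19 and 7.60 CPM in adult cultures. With LPS it stood at 6.87, 71.0 and 36.7 CPM in embryonic and at 98.6, 116 and 125 CPM in adult cultures. All adult LPS libraries were above all embryonic LPS libraries, and in each stage the LPS libraries were above the PBS libraries. The adult LPS libraries spanned only 1.27-fold, against 10.3-fold for the embryonic ones.

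Ptx3 rose in embryonic stroma with a log2 fold change of 3.62 ± 0.81 (SE, edgeR adjusted p = 0.0434). Without both libraries of embryonic culture 3 the fold change was 3.21 and this p was 0.269, and without those of adult culture 1, 2 or 3, which share the estimate of spread, it was 0.114, 0.106 and 0.150. The adult log2 fold change was 4.03 ± 0.81 (edgeR adjusted p = 0.0658) without the block and 4.05 ± 0.38 (edgeR adjusted p = 0.000739) with it. Without the block it passed once both libraries of embryonic culture 1 or 2 were left out (adjusted p = 0.0231 and 0.0247). With the block the embryonic value was 3.49 ± 0.41 (edgeR adjusted p = 0.00126), and both stages kept their call without any 1 culture. The interaction was -0.41 ± 1.04 without and -0.55 ± 0.54 with the block (SE, edgeR adjusted p = 1.00 and 0.855), so a difference between the responses was not shown. The stage differences, -1.16 ± 0.76 with PBS and -1.57 ± 0.73 with LPS, missed the threshold (edgeR adjusted p = 0.459 and 0.243), although the latter passed without embryonic culture 2 (adjusted p = 0.0442).

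Hp was found mainly in adult cultures. All 3 embryonic PBS libraries had 0 counts, and the embryonic LPS libraries had 1, 16 and 1 counts (0.0351, 0.553 and 0.0388 CPM). Adult libraries held 2.23, 10.4 and 2.08 CPM with PBS and 4.79, 21.7 and 7.48 CPM with LPS. No adult library overlapped an embryonic one of the same treatment. With PBS the adult mean was at least 54.0-fold above the embryonic floor, but this mean of 4.89 CPM was 2.16 CPM without culture 2. With LPS no fold is given, since the embryonic mean rested on 1 library. The stage differences passed the threshold with PBS and with LPS (edgeR adjusted p = 0.0277 and 0.0387), but Hp passed the filter on low counts only through the adult groups, so these tests are descriptions.

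The adult response of Hp to LPS did not reach the fold that a call required. The adult log2 fold change was 1.22 ± 0.97 (SE, edgeR adjusted p = 1.00) without the block and 1.32 ± 0.22 (edgeR adjusted p = 0.0256) with it, against the 2 on the log2 scale that was required. Every adult culture was higher with LPS, by 2.14-fold, 2.09-fold and 3.595-fold in cultures 1, 2 and 3. In embryonic stroma the response missed the threshold without the block (edgeR adjusted p = 0.382). With the block it passed (edgeR adjusted p = 0.0226), but the call rested on the 16 counts of culture 2 (adjusted p = 0.296 without that culture) and was also lost without adult culture 1 (adjusted p = 0.0524), and the mean with LPS was at least 2.31-fold above the floor.

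**Figure D2:**
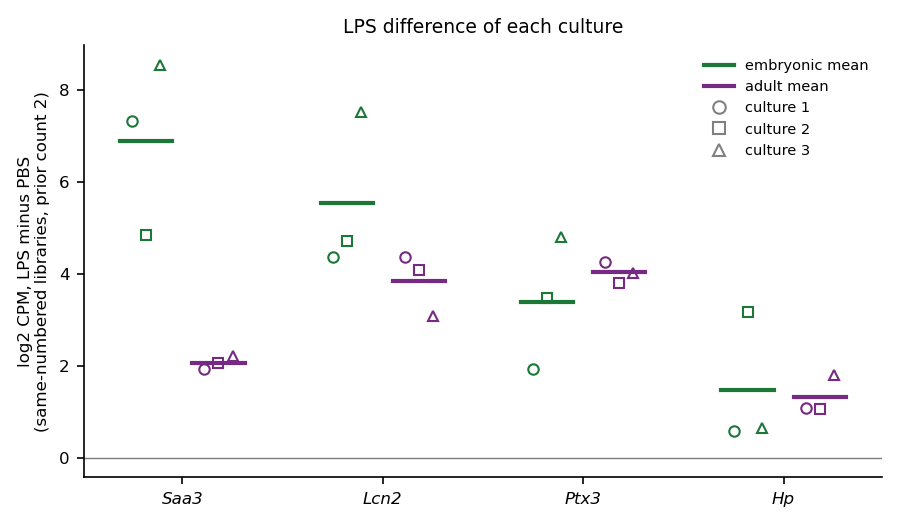
Difference in log2 CPM (prior count of 2) between same-numbered libraries with LPS and with PBS, for each culture (symbols) and as the mean of 3 (bars), in embryonic (green) and adult (purple) stroma. The 3 adult differences of Saa3, from 1.93 to 2.21, lie below all embryonic ones, from 4.85 to 8.55, whereas those of Ptx3 overlap.

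Counted over the 6 members, 4 passed the filter on low counts. In embryonic PBS, Lcn2 and Hp were at 0 and Saa3 was as low as 0.0301 CPM. These members passed only through other groups, so the counts that follow are descriptions. Without the block, 2 members (Saa3 and Ptx3) were called as higher with LPS in embryonic stroma, where 1.87% of the 13038 tested genes were, and none of the 6 in adult stroma, where 0.422% were. In adult stroma Ptx3, at an unadjusted p of 0.000541, was the only member below 0.05, and DESeq2 called 1 member. With the block, 4 members were called in embryonic and 3 in adult stroma, against 3.02% and 1.6% of tested genes. No member was called for the interaction without the block (0% of tested genes), where Saa3 alone had an unadjusted p below 0.05 and DESeq2 called none. With the block Saa3 was called, against 0.798% of tested genes called in that direction.

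In the comparison of stages, Saa3 and Hp were called as lower in embryonic stroma with PBS (2.57% of tested genes) and Hp with LPS (2.27%). With both libraries of adult culture 2 left out, the PBS calls stayed (adjusted p = 0.0409 for Saa3 and 0.0459 for Hp) and the LPS call was lost (adjusted p = 0.0744). Both PBS calls were lost without the libraries of adult culture 1 (adjusted p = 0.0501 and 0.0625) or 3 (adjusted p = 0.0694 and 0.112). That of Hp alone was lost without embryonic culture 1 or 3 (adjusted p = 0.0677 and 0.0555). The LPS call of Hp was lost without any 1 culture except embryonic culture 2, with adjusted p from 0.0744 to 0.158. The levels of Saa3 and Hp did not overlap between stages with PBS, nor did those of Ptx3 and Hp with LPS, where 11.9% and 11.8% of tested genes were likewise higher in every adult library. LPS libraries were above PBS libraries without overlap for Saa3, Ptx3 and Lcn2 in embryonic stroma (7.58% of tested genes) and for Saa3 and Ptx3 in adult stroma (9.1%). For Hp in embryonic cultures 1 and 3 this came down to 1 count against 0, which is below the floor.

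Per kilobase of mRNA, which allows levels of different genes to be compared, Ptx3 exceeded Saa3 in all 3 embryonic PBS libraries (0.921, 3.34 and 0.662 against 0.0543, 2.36 and 0.593 CPM per kb). Saa3 exceeded Ptx3 in the other 9 libraries. In adult LPS libraries the order of the mean levels was Saa3 at 459 ± 301, Ptx3 at 59.7 ± 7.2, Lcn2 at 33.3 ± 44.5 and Hp at 8.41 ± 6.75 CPM per kb (SD, n = 3 each). There Saa3 and Ptx3 did not overlap, whereas Lcn2 overlapped both Ptx3 and Hp. In embryonic LPS libraries the order was the same, at 123 ± 128, 20.1 ± 16.9, 5.78 ± 7.05 and 0.155 ± 0.221 CPM per kb, and only Hp was apart from its neighbour. Summed over the 6 members, the level ran from 1.58 to 7.65 CPM in embryonic PBS, 41.1 to 129.5 in adult PBS, 24.2 to 199 in embryonic LPS and 284 to 661 CPM in adult LPS libraries.

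Cultures of 1 stage differed widely, and the markers of other cells differed with them. The 6 endothelial markers summed to 19.9, 1791 and 378 CPM in adult PBS cultures 1, 2 and 3 and to 14.1, 1720 and 352 CPM in the adult LPS cultures, with all 6 detected in each. Lcn2 followed the same order of cultures under both treatments, and culture 2 also had the highest Saa3 and Hp. In the embryonic cultures the endothelial sum was between 8.37 and 34.7 CPM, with Tie1 at no more than 3 counts. Of the 6 markers, Kdr varied little among adult cultures (13.7 to 16.8 CPM with PBS and 6.74 to 9.41 CPM with LPS). With LPS it was higher in embryonic libraries (11.3 to 29.5 CPM). In adult culture 1, the one with few endothelial transcripts, Saa3 stood at 46.9 and Hp at 2.23 CPM with PBS, and Saa3, Ptx3 and Lcn2 were higher with LPS. The part of endothelial, glial, interstitial or fat cells in these levels was not tested.

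Macrophage markers, 9 of 10 listed genes (Adgre1 was not analysed here), ran the other way between the stages. They summed to between 142 and 1480 CPM in embryonic PBS, 116 and 1173 in embryonic LPS, 8.48 and 75.9 in adult PBS and 7.50 and 83.2 CPM in adult LPS libraries, and none of the 9 was at 0 in any library. Embryonic culture 3, with 1480 and 1173 CPM of these markers, had the highest Saa3 and Lcn2 of the embryonic LPS libraries. With PBS, however, Saa3 was highest in embryonic culture 2 (1.31 against 0.329 CPM in culture 3), and Lcn2 was at 0 in every embryonic culture. Adult culture 2, with 8.48 and 7.50 CPM, had the lowest macrophage sum and the highest Saa3, Lcn2 and Hp of all. The 6 mesothelial markers were highest in adult culture 1 (1377 and 1428 CPM) and, among embryonic cultures, in culture 2 (752 and 662 CPM), the embryonic culture with the highest Ptx3 under both treatments. Adult culture 1, however, had the lowest Ptx3 of the adult cultures under both treatments. The part of macrophages and mesothelial cells in the levels of the members was not tested.

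**Figure D3:**
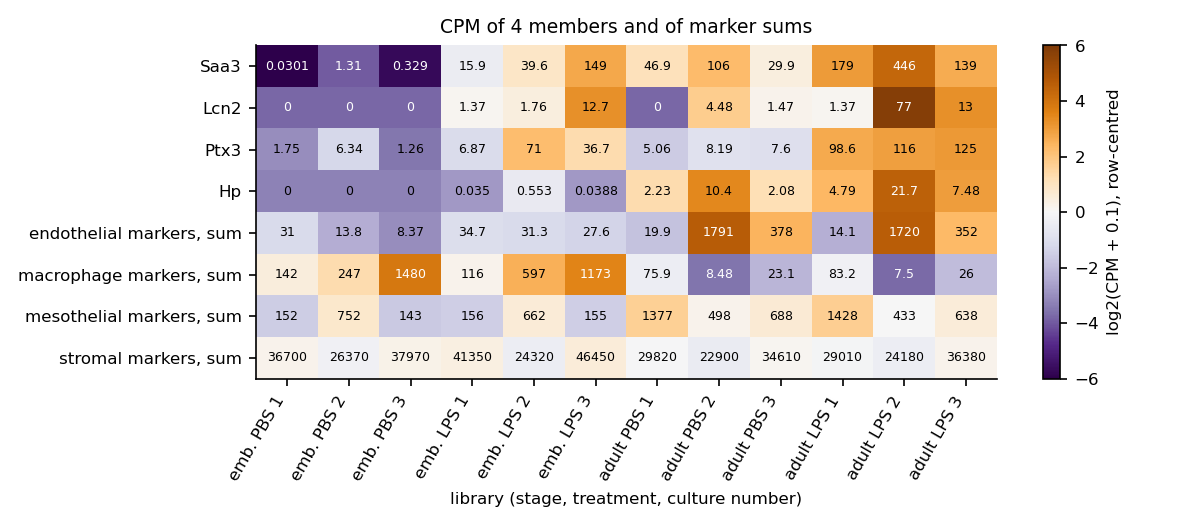
CPM of Saa3, Lcn2, Ptx3 and Hp and summed CPM of 4 marker lists in the 12 libraries, printed in each cell. Colours give log2(CPM + 0.1) relative to the mean of the row. Lcn2 and the endothelial sum are both highest in adult culture 2 (77.0 and 1720 CPM with LPS), while the macrophage sum there is the lowest.

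Of 26 other acute phase proteins listed, 10 were tested, and 3 rose in embryonic stroma with LPS without the block: Steap4, a metalloreductase, Il1rn, the interleukin-1 receptor antagonist, and Cfb, complement factor B. All 10 had a positive log2 fold change in both stages, with a median of 3.82 in embryonic and 1.04 in adult stroma, against medians of -0.00027 and -0.0075 over all tested genes. None of the 10 was called in adult stroma without the block. With it, 7 were called in embryonic stroma and Steap4, Il1rn and Cfb in adult stroma. The interaction was then called for Steap4, C3 and Serpina3g, against 0.798% of tested genes in that direction. Cfb passed the filter on low counts only through the LPS groups, Serpina3g only through embryonic LPS and Lbp only through the adult groups. Steap4 did not pass it in embryonic PBS, where its median of 0.0301 CPM was below the 3-count floor. The calls of Cfb, Serpina3g, Lbp and Steap4 that involve groups they did not pass through are therefore descriptions. For this and the following lists, 1.87% of all tested genes were called as higher with LPS in embryonic and 0.422% in adult stroma. With the block these shares were 3.02% and 1.6%. Of the same 10, 4 were called as higher in adult than in embryonic PBS cultures, as were 2.57% of all tested genes. These were C3, complement component 3, at 53.3 to 172 against 0.784 to 2.84 CPM, Steap4 at 5.62 to 22.4 against 0.0299 to 0.152 CPM, Cp, ceruloplasmin, at 6.74 to 47.1 against 0.904 to 1.08 CPM, and Lbp, the LPS binding protein, at 3.57 to 7.50 against 0.0915 to 0.658 CPM. Lbp and Serpina3g were named after their values were seen. The liver proteins Fgg and Apcs, also chosen afterwards, had 0 counts in all libraries, and Crp had at most 2 counts in any library.

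Among the inducers of the response, 3 cytokines were called as higher in embryonic than in adult LPS libraries, where Hp was called as lower and Saa3 was not called. With PBS, where Saa3 and Hp were called as lower, none of the 3 was called (Tnf, Il1a and Il1b, edgeR adjusted p = 0.206, 0.209 and 0.199). All 14 listed cytokines and receptors were tested, and 5 rose in embryonic stroma (Il6, Osmr, Il1a, Il1b and Tnf) and 1 in adult stroma (Tnf), or 7 and 5 with the block. Tnf and Il1b passed the filter on low counts only through the LPS groups, so the calls of their LPS responses are descriptions. Tnf ran from 240.3 to 3151 CPM in embryonic and from 9.47 to 65.6 CPM in adult LPS libraries, and Il1b from 324 to 2816 and from 4.67 to 24.6 CPM. Tnf, Il1a and Il1b were called as higher in embryonic LPS libraries, as were 3.04% of tested genes (log2 differences of 5.43, 4.74 and 6.38, edgeR adjusted p = 0.0279, 0.0279 and 0.0179). The 9 macrophage markers all had positive log2 differences in the same comparison, with a median of 4.09 and none called without the block, and their part in these cytokine levels was not tested. Il6, the main inducer of hepatic acute phase genes, was not called between the stages with LPS: it ran from 37.1 to 214 CPM in embryonic and from 76.1 to 189.7 CPM in adult LPS libraries (log2 difference -0.39, edgeR adjusted p = 0.831).

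Of 17 listed transcription factors and regulators, 15 were tested. LPS raised 9 and lowered 1 of them in embryonic stroma (0.0537% of tested genes were called as lower there) and raised 6 in adult stroma, with median log2 fold changes of 2.395 and 1.965. Nfkbia and Zc3h12a, negative regulators of NF-κB signalling and of inflammatory mRNAs, Nfkbiz, the IκBζ cofactor that Lcn2 induction is known to need, and the NF-κB subunits Relb and Nfkb2 rose in both stages. Nfkbiz, for example, had log2 fold changes of 4.16 ± 0.43 in embryonic and 3.11 ± 0.41 in adult stroma (SE, edgeR adjusted p = 0.00162 and 0.0101). Socs3, the feedback inhibitor of STAT3, and Cebpd rose in embryonic stroma (log2 fold changes of 5.66 and 2.89, edgeR adjusted p = 0.0107 and 0.0386). Cebpa fell there by 4.77 on the log2 scale (edgeR adjusted p = 0.00948), from between 5.21 and 39.3 CPM to between 0.466 and 0.967 CPM. With the block Cebpd was called in adult stroma too (log2 fold change of 2.19 ± 0.37, SE, edgeR adjusted p = 0.0132), so that 7 of the list rose there. No gene of the inducer or regulator lists was called for the interaction, with or without the block. Of all tested genes, 0% were called without it and 0.798% as higher with it.

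Of 22 listed receptors and partners of the member proteins, 19 were tested, and Hbb-bs was not analysed here. Fpr1 and Fpr2, formyl peptide receptors of which Fpr2 binds serum amyloid A, and Tlr2 rose in embryonic stroma, and Tlr2 also rose in adult stroma. Fpr1 and Fpr2 passed the filter on low counts only through the embryonic LPS group, so their calls are descriptions. With the block 7 and 3 of the 19 rose. With LPS, Tlr2 ran from 80.8 to 282 CPM in embryonic and from 102 to 265 CPM in adult libraries, whereas Fpr2 ran from 3.33 to 23.1 CPM in embryonic and did not exceed 0.391 CPM in adult libraries. The next receptors were chosen after their values were seen. Cd163, the macrophage receptor for haptoglobin bound to haemoglobin, had at most 6 counts in any library. Slc22a17 and Lrp2, receptors of lipocalin 2, were present in all libraries (at least 5.05 and 26.4 CPM) and were not called in either LPS response. None of the 10 iron handling genes, none of 3 tested of 14 antimicrobial proteins and neither of 2 tested of 7 negative acute phase proteins was called in either LPS response, with or without the block. Given the low shares of all tested genes that were called, the lack of a call in such short lists says little about them.

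**Figure D4:**
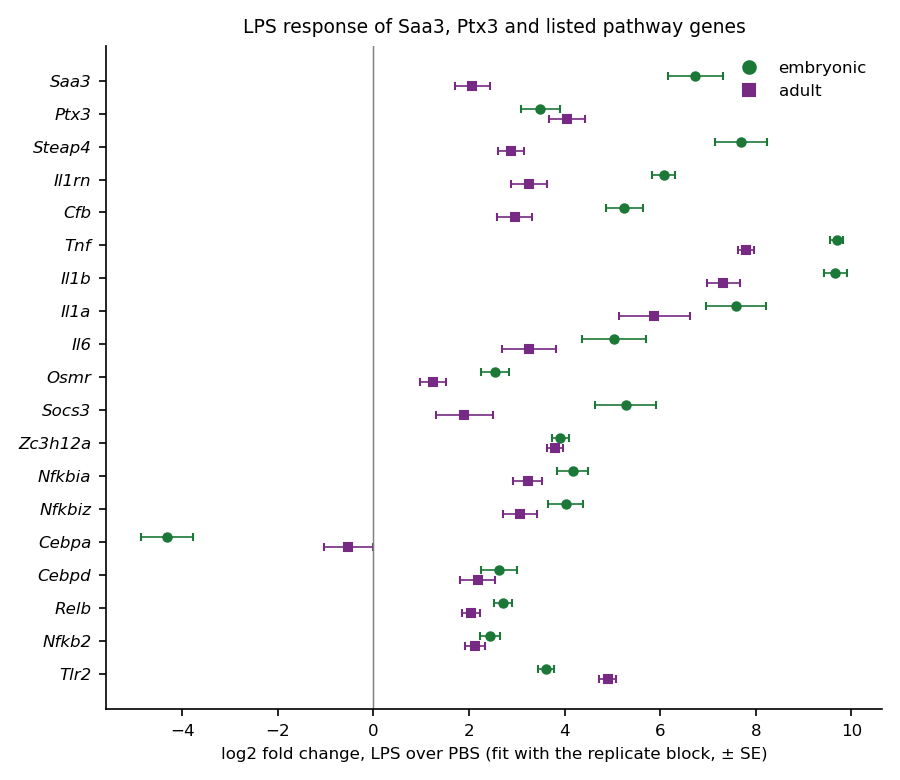
Log2 fold change of LPS over PBS, with its SE, from the edgeR fit with the replicate block, in embryonic (green circles) and adult (purple squares) stroma. Saa3 lies at 6.74 and 2.07, Ptx3 at 3.49 and 4.05, and Steap4 at 7.70 and 2.88. Fpr1, Fpr2, Lcn2 and Hp, with at most 1 count in each library of a PBS group, are left out. Steap4 in embryonic PBS and Il1b in adult PBS had medians of 0.0301 and 0.0341 CPM, below the 3-count floor. Their fold changes in those stages rest on few counts.

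The gene whose pattern over the 12 libraries was most like that of Saa3 was Steap4. The root mean square difference of their centred log2 CPM was 0.690 among 13037 genes compared, followed by C3 at 1.59 and Vcam1, an endothelial and stromal adhesion molecule, at 1.86. For Ptx3 the nearest were Tslp, an alarmin cytokine, at 0.842, Vcam1 at 0.843 and Pglyrp3, a peptidoglycan recognition protein, at 0.882. For Lcn2 they were F830016B08Rik at 1.65, Cp at 1.73 and Vcam1 at 1.80, and for Hp they were Nrn1 at 0.908, Sod3, the extracellular superoxide dismutase, at 0.910 and Calca at 1.11. The members were not each other's nearest genes, but some stood close among the 13037. In the order for Saa3, Lcn2 stood in place 14, Ptx3 in place 25 and Hp in place 36. In that for Lcn2, Ptx3 stood in place 18, Saa3 in place 29 and Hp in place 364. In that for Hp, Saa3 stood in place 347, Ptx3 in place 483 and Lcn2 in place 1410. In the order for Ptx3, Lcn2 stood in place 1024, Saa3 in place 5865 and Hp in place 11085. The measure also counts the size of changes: a gene without any change would lie at 2.247 from Ptx3, about as near as Saa3 at 2.253. The far places in that order therefore do not show that the patterns differ in direction. These are descriptions over libraries that share culture and treatment.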

How the data were processed

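Stranded poly(A) RNA-seq (single-end, 75 bases) was made from 12 libraries. The authors trimmed the reads, mapped them with STAR to GRCm38.p6 (mm10), kept unique reads with at most 1 mismatch and deposited raw counts per gene, without normalization, for each strand and for both together. Sense-strand counts were used, since antisense counts made up 1.14% to 1.98% of those in genes. Reads not assigned to a gene on that strand (17.4% to 19.9%) were left out. Reads that mapped to several places (8.45% to 9.37%) are part of this share.

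Groups came from the sample labels. Genes that exceeded 0.5 CPM in every library of any 1 group (13038) were tested with edgeR 4.0.16 (quasi-likelihood, TMM, Benjamini-Hochberg) in R 4.3.3, with 12 libraries and 4 groups in 1 fit. An LPS response was called at an adjusted p under 0.05 with a log2 fold change of 2 or more in size, and the interaction and the stage differences (embryonic minus adult) at an adjusted p under 0.05. The SE of a log2 fold change is its size divided by the square root of the F statistic. Figures were drawn with matplotlib 3.10.9. mRNA lengths came from 1 GENCODE M21 transcript per gene. The scripts were tested on simulated data.

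Each group has libraries numbered in the labels. Same-numbered LPS and PBS libraries of a stage deviated together from their group means (r across genes from 0.610 to 0.850), so the numbers were taken to pair them, and a fit with this replicate block within stage is given beside the results it changes. Embryonic and adult libraries of the same number did not (r from -0.306 to -0.0022). The study describes independent cultures of adult mice and of pooled embryos.

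The members, the gene lists, the markers and the tests were chosen with earlier results of these data known. Named genes are the 6 members, listed genes called in either LPS response (the 8 with the largest mean change where a list had more), and the 3 genes most like each tested member. Alternatives were other size factors, DESeq2 1.42.0 without independent filtering, other filters and thresholds, both strands together, only the libraries compared, the block, and each library left out.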

Additional observations from a re-analysis of the deposited data

Results flagged for a closer look

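Of the 4 tested members, only Saa3 was called for a difference between the responses of the 2 stages, and only with the replicate block. In the edgeR fit with the replicate block the interaction, embryonic minus adult, was 4.67 on the log2 scale (adjusted p = 0.0276), and it was 4.87 and did not pass without the block. The blocked call was lost when embryonic culture 1 or adult culture 1, 2 or 3 was left out. On the log2 scale the difference between LPS and PBS was greater in 3 of 3 embryonic cultures than in any adult culture, whereas the mean rise in CPM was 67.6 in embryonic and 194 in adult cultures. The PBS level of Saa3 was 1, 43 and 11 counts in embryonic against 878 to 2209 counts in adult libraries. Saa3 did not pass the filter on low counts through embryonic PBS, so its interaction call is a description.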

How the results depend on the processing

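The members called in the main analysis were 2 in the embryonic and 0 in the adult LPS response, 0 in the interaction, and 2 and 1 in the stage differences with PBS and LPS. RLE size factors, other filters on low counts and counts without regard to strand kept these numbers. The replicate block gave 4, 3 and 1 members in the first 3 comparisons and changed no member's call in the stage differences, where the numbers do not pair libraries. The block raised the genes called from 251 to 444 in the embryonic and from 55 to 211 in the adult LPS response. In the interaction it raised them from 0 to 110. For the stage differences the block was the culture number shared by all 4 groups, not within stage. There the genes called went from 532 to 891 with PBS and from 692 to 1059 with LPS. DESeq2 gave 4 and 1 members in the LPS responses, 3 in the stage difference with PBS, and 379, 170, 25, 1552 and 1704 genes in the 5 comparisons. An adjusted p under 0.01 left 0 members and 103, 15, 102 and 96 genes in the LPS responses and stage differences, library totals alone 1 in the embryonic response, and fits of only the libraries compared 0, 1, 1 and 0 members and 4, 124, 173 and 70 genes. Over fits that each omit 1 library, the counts ran from 0 to 2 (embryonic), 0 to 1 (adult), 0 to 2 (PBS) and 0 to 1 (LPS), with 84 to 303, 4 to 91, 152 to 638 and 132 to 814 genes called.

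Further settings were chosen after seeing the data. With both libraries of 1 culture left out, the unblocked counts ran from 0 to 2 in the embryonic response, from 0 to 1 in the adult response, and from 0 to 2 in both stage differences. The blocked counts ran from 3 to 4, from 2 to 3 and from 0 to 1 in the first 3 comparisons, and were 4, 3 and 1 under other size factors or both strands together. The interaction of Ptx3 turned positive without embryonic LPS replicate 1 (0.08) or embryonic PBS replicate 2 (0.64), within a range of -1.23 to 0.64 over the single libraries omitted and with no call under any setting. The cause of these changes was not tested. Depth limits Saa1, Saa2 and embryonic Hp, and 3 cultures a group limit every test of the stages.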
